A study of Mus musculus with 4 samples.

Results

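Septin mRNAs were found in the CA1 neuropil of mouse hippocampus at 12 polyadenylation (polyA) sites of 9 septin genes, with 49 sequenced tags over 4 libraries, out of 9297 sites of 7202 gene names with 34672 tags in all. Sept7 carried 22 of the 49 tags (44.9%), followed by Sept3 with 7, Sept8 with 6 and Sept9 with 5, although by mean library share Sept8 stood above Sept3. Sept6 and Sept11 carried 3 tags each, and Sept2, Sept4 and Sept10 carried 1 each. In the table these genes stand as calendar dates of September (7-Sep for Sept7), the form a spreadsheet gives to such symbols, and no name was spelled Sept with a digit. The 12 sites were therefore chosen by their dates and the day was read as the septin number. Each number was then checked against GENCODE vM21: 11 of the 12 sites lay inside the gene of that number on its own strand, and the other one lay 9 bases past the annotated end of Sept8.

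Septins are GTP-binding proteins that assemble into rod-shaped hetero-oligomers, which join end to end into filaments lying under membranes and along actin and microtubules. They fall into homology groups named after Sept2, Sept3, Sept6 and Sept7, and in general a member of a group can stand in for another of the same group in the rod, whereas Sept7 is the only member of its own group. In neurons, septins are found at the base of dendritic spines and at dendritic branch points, with Sept7 the best known of them there. Sept7 and some of the others are also made by oligodendrocytes, where septin filaments line the myelin sheath.

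The tags came from cTag-PAPERCLIP, in which poly(A)-binding protein is crosslinked to mRNA by UV light, precipitated through a GFP tag, and the bound RNA sequenced so that each tag marks an mRNA 3′ end. All 4 libraries belonged to a single group, CA1 neuropil (the layer of dendrites and axons, here cut away from the cell bodies) of C57BL/6 mice of the genotype Camk2a-Cre x Pabpc1-cTag, in which Cre driven from Camk2a switches on the tagged Pabpc1 in excitatory neurons. Each replicate pooled several adult mice. With no second group there was no contrast between conditions, and the questions the design allowed were which septin 3′ ends were tagged in dendrite-rich tissue, at what share of the tags, and how evenly over the replicates.

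The libraries held 5947 to 16017 tags, with the most in replicate 1. Of the markers of pyramidal neurons, the cells in which Pabpc1 was tagged, 8 of 10 genes had tags (0.287% to 0.639% of a library), although Camk2a and Slc17a7 had none under those names, and among markers of other cells 6 of 6 oligodendrocyte genes (0.131% to 0.545%, led by Mbp) and 6 of 6 astrocyte genes (0.0820% to 0.262%) had tags too. Of the interneuron genes 3 of 6 had tags, of the microglial genes 2 of 6 and of the endothelial genes 1 of 3. The part of tags from other cells in the septin counts was not tested.

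The bases around the sites are given here to show where the polyA signal, the hexamer AATAAA or its usual variant ATTAAA, stood at each and at which sites it was missing. Each run is the 30 bases of GRCm38 (mm10, RefSeq sequence) from 15 bases upstream to 14 bases downstream of the listed position, on the strand of the gene, with the hexamer in capitals. The first line is the most tagged septin site, and the next 3 are the alternative 3′ ends of Sept8 in order along the gene.
Sept7, chr9:25308532-25308561, plus strand: aaaaaattcacatAATAAAcaatgttgtga
Sept8 upstream, chr11:53541864-53541893, plus strand: ataatctatagggagaggcggggAATAAAg
Sept8 middle, chr11:53544067-53544096, plus strand: gttttcATTAAAttttgcatttattttgag
Sept8 downstream, chr11:53549559-53549588, plus strand: aAATAAATAAATAAATAAAggaggccaaag

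The next 4 show the pair of Sept6 sites, which have the AATAAA and ATTAAA forms at the same place, and the 2 septin sites without either hexamer, where the capitals mark other hexamers, ACTAAA at Sept3 and TTTAAA at Sept11.
Sept6 downstream, chrX:36912250-36912279, minus strand: catgtcaattttcAATAAAattcaaagaaa
Sept6 upstream, chrX:36913448-36913477, minus strand: tgcttatttttaaATTAAAgcaagatgcaa
Sept3, chr15:82294534-82294563, plus strand: agcctctgttgtacaACTAAAcattactgt
Sept11, chr5:93176411-93176440, plus strand: tttataTTTAAAgataacttaaaatcctgt

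Summed over genes, the septins made up 0.161% ± 0.0589 of library tags (SD, n = 4). Replicate 1 had 15 septin tags, 0.0937% of the library (95% Wilson interval 0.0568% to 0.154%), and replicate 2 had 9 tags, 0.136% (0.0717% to 0.259%). Replicate 3 had 11 tags, 0.185% (0.103% to 0.331%), and replicate 4 had 14 tags, 0.230% (0.137% to 0.385%). The intervals of all 4 libraries overlapped, and cover counting error only, since tags that were copied by PCR are not independent molecules. In these samples, fewer cells or processes of a type and less of the RNA in each cannot be told apart. A gene with no tag in a library could still have held a share of up to 0.0187%, 0.0454%, 0.0504% and 0.0492% in replicates 1 to 4, the worth of 3 tags.

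**Figure D1:**
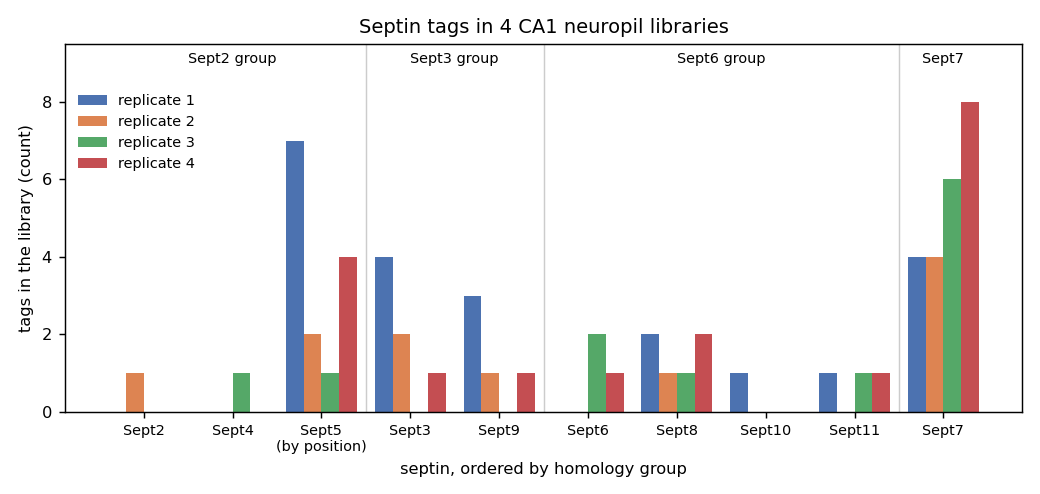
Tags (count) at the polyA sites of each septin in the 4 libraries, 1 bar per library, with septins ordered by homology group; Sept5 is shown through a site that carries another gene's name. Sept7 reached 8 tags in replicate 4, and Sept3 and Sept9 had none in replicate 3.

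Sept7, the only member of its homology group, was tagged in every library, with 4 tags in replicate 1, 4 in replicate 2, 6 in replicate 3 and 8 in replicate 4. Because replicate 1 was the deepest library, these were shares of 0.0250%, 0.0605%, 0.101% and 0.131%, with a mean of 0.0794% ± 0.0464 (SD, n = 4). Replicate 1 was thus the lowest and replicate 4 the highest. All 22 tags fell on 1 site at position 25308547 of chromosome 9 (plus strand), 24 bases before the end of the gene, in the last exon and 3′UTR of Sept7-201 and Sept7-202, which both encode 437 codons and have 995 bases of 3′UTR up to the site. By its mean share Sept7 ranked 148 of the 7202 names, above 97.9% of them, and 162 sites of the whole table (1.74%) had as many tags or more.

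Sept7 was the only septin with at least 20 tags, the minimum for a test of even shares between libraries. In proportion to the library totals its 22 tags would have fallen as 10.2, 4.19, 3.77 and 3.87, and the exact multinomial goodness-of-fit test gave p = 0.0223, or 0.0337 after Benjamini-Hochberg adjustment over the 211 names tested. This call was common: 148 of the 211 names (70.1%) passed the same threshold. It was lost when the site with the most tags in a library was left out of the totals (adjusted p = 0.114 by the same exact test) and when names with at least 10 tags were tested (0.0539), and with that minimum it was also lost without replicate 1 (0.525) or without replicate 4 (0.128) and held without replicate 2 (0.0283) or without replicate 3 (0.0268). The test sets the libraries against the counting error of independent tags alone, so that any spread between the pools beyond it counts as a difference. Over the 4 libraries the oligodendrocyte markers ran from 0.281% in replicate 1 and 0.545% in replicate 2 to 0.185% in replicate 3 and 0.131% in replicate 4. The astrocyte markers were at 0.262%, 0.136%, 0.118% and 0.0820%. The pyramidal neuron markers were at 0.456%, 0.287%, 0.504% and 0.639%, highest in replicate 4 and lowest in replicate 2, whereas Sept7 was highest in replicate 4 and lowest in replicate 1. The interneuron markers, with 11 tags in all, were at 0.0250%, 0.0303%, 0.0336% and 0.0492%, lowest in replicate 1 and highest in replicate 4 like Sept7. Of these tags 8 were at Gad1, with 3, 1, 2 and 2 in replicates 1 to 4, and the others at Sst and Pvalb. The microglial markers, with 9 tags in all, were at 0.0250%, 0.0605%, 0.0168% and 0%, highest in replicate 2 and lowest in replicate 4. The part of any of these cells in the Sept7 values was not tested.

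The Sept3 group, which in the mouse holds the neuron-rich Sept3, the widely made Sept9 and the testis gene Sept12, had 12 tags in 2 of its 3 genes, 24.5% of septin tags and 0.0305% ± 0.0211 of the libraries (SD, n = 4). Sept3 had 4, 2, 0 and 1 tags in replicates 1 to 4, a mean share of 0.0179% ± 0.0132. Sept9 had 3, 1, 0 and 1 tags, a mean share of 0.0126% ± 0.00851. Both were therefore missing from replicate 3 and had their most tags in replicate 1, the deepest library. The Sept3 site, at position 82294549 of chromosome 15, lay 25 bases before the end of Sept3-201, after 3676 bases of 3′UTR, the longest up to any of the 12 sites in the transcripts compared. The Sept9 site, at position 117362289 of chromosome 11, lay 19 bases before the nearest of 5 transcript ends, Sept9-201 to Sept9-205, which share a last exon and 1734 bases of 3′UTR up to the site, and so it does not separate the long and short Sept9 proteins, of 334 to 583 codons.

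The Sept6 group had the most genes and sites, with 4 of its 5 genes tagged (Sept6, Sept8, Sept10 and Sept11) at 7 sites. Its 13 tags, 4 in replicate 1, 1 in replicate 2, 4 in replicate 3 and 4 in replicate 4, made up 0.0432% ± 0.0271 of the libraries (SD, n = 4). Sept8 was tagged in every library, with 2, 1, 1 and 2 tags and a mean share of 0.0193% ± 0.00917, the least uneven of the septins with 3 or more tags relative to its mean. Sept6 had 0, 0, 2 and 1 tags (0.0125% ± 0.0161, and 0.00547% without replicate 3) and Sept11 had 1, 0, 1 and 1 (0.00986% ± 0.00819). Sept10 had its single tag in replicate 1. Sept14, a testis gene, had no site.

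Sept8 was the only septin with 3 sites, all on chromosome 11, plus strand, and each fell at the end of different annotated transcripts. The upstream site, position 53541879, had 1 tag (replicate 2) and lay 19 bases before the end of Sept8-203, with Sept8-207 ending nearby (440 and 442 codons). It also lay inside the last exon of Sept8-201 and Sept8-202, 666 and 843 bases into their 3′UTRs, so its tag may belong to either pair. The middle site, position 53544082, lay 2203 bases further on and had 1, 0, 1 and 2 tags in replicates 1 to 4. It stood 13 bases before the end of Sept8-201 (429 codons), after 2869 bases of 3′UTR, and 14 before that of Sept8-202 (430 codons). The downstream site, position 53549574, lay another 5492 bases on and had 1 tag (replicate 1), 9 bases past the end of Sept8-204, which has its own last exon and encodes the longest of these proteins, with 484 codons. Of the 30 bases around the downstream site 19 were A, against a median of 12 over all sites, and 5.87% of all sites had as many or more. The middle site was the only one of the 3 with tags in more than 1 library.

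**Figure D2:**
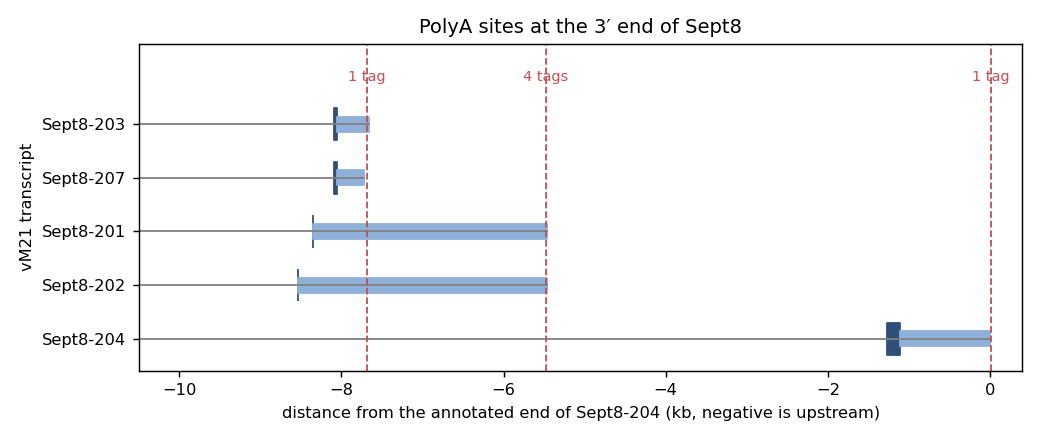
Last exons of 5 Sept8 transcripts of vM21 against distance from the end of Sept8-204 in kb, with coding parts as tall dark boxes, 3′UTRs as low light boxes, introns as lines and the 3 polyA sites as dashed lines with their tags over all 4 libraries. The site with 4 tags stands at the end of Sept8-201 and Sept8-202, and the sites with 1 tag at the ends of Sept8-203 and Sept8-204.

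Sept6 had 2 sites on the minus strand of chromosome X, 1198 bases apart and in different last exons. The upstream site, position 36913462, had 1 tag in replicate 3 and stood 16 bases before the end of Sept6-201 (427 codons), after 3125 bases of 3′UTR. The downstream site, position 36912264, had 1 tag in replicate 3 and 1 in replicate 4. It lay in the last exon of Sept6-202 (429 codons), after 981 bases of 3′UTR, but 938 bases before the annotated end, and was the only septin site with no annotated transcript end within 50 bases, although it has an AATAAA. Taking the most upstream and most downstream sites of Sept6 and Sept8 together, the downstream ones held 3 of 5 tags, and by library 1 of 1, 0 of 1, 1 of 2 and 1 of 1, a mean downstream share of 62.5% ± 47.9 (SD, n = 4). With 5 tags no preference for either end was detectable. A test of whether site usage differs between libraries needed at least 2 sites of a gene in more than 1 library each, with at least 10 tags at them, and no septin met this. Of the 105 names it could test, 14 (13.3%) passed, and without replicates 1 to 4 in turn 2 of 49, 6 of 68, 4 of 58 and 5 of 58 passed.

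Sept11 and Sept10 had 1 site each. The Sept11 site (chromosome 5, position 93176426, plus strand; tags in replicates 1, 3 and 4) lay 11 bases before the end of Sept11-208 (425 codons) and 21 before that of Sept11-203 (431 codons). The Sept10 site (chromosome 10, position 59164133, minus strand) stood 13 bases before the end of Sept10-201 (427 codons). The site is 22506 bases upstream of the end of the gene, where Sept10-203, with 452 codons, stops, and the table lists no site there. Since the table seems to list only sites called in Camk2a-expressing cells, tags outside them would not appear.

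The Sept2 group had 2 tags by name, in 2 of its 4 genes. Sept2 had 1 tag in replicate 2, at position 93509702 of chromosome 1 (plus strand), 31 bases before the end shared by Sept2-214, Sept2-215 and Sept2-216. The longest Sept2 transcript, Sept2-201, runs 558 bases past the site. Sept4, which is abundant in glia, had 1 tag in replicate 3, at position 87590516 of chromosome 11 (plus strand), 21 bases before the nearest of several transcript ends and after 141 to 229 bases of 3′UTR, the shortest of the septins. Sept1 and Sept5 had no site by name.

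By position, a further site with 14 tags lay in a gene of the Sept2 group. It is named Gp1bb, after the neighbouring gene of a platelet glycoprotein, and stood at position 18621834 of chromosome 16 (minus strand), 23 bases before the end of Sept5-201 and Sept5-202 and inside the Sept5 3′UTR. The ends of the Gp1bb transcripts lay 1515 and 1517 bases further downstream, and the transcript Sept5-205, which runs on into Gp1bb, ended 1332 bases downstream. Sept5 encodes a brain septin that binds syntaxin and is found on synaptic vesicles. The 30 bases around the site hold neither AATAAA nor ATTAAA, nor any of the other hexamers searched, and are shown here since the name and the position of the site differ.
Sept5 locus (site named Gp1bb), chr16:18621820-18621849, minus strand: tcctgtcctggtgacaggagaacaaagttg

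That site had 7, 2, 1 and 4 tags in replicates 1 to 4, or 0.0437%, 0.0303%, 0.0168% and 0.0656% of the libraries, a mean of 0.0391% ± 0.0208 (SD, n = 4). Replicate 3 was the lowest and replicate 4 the highest. If read as Sept5, it would rank 362 among the names, between Sept7 and Sept8, and make up 22.2% of the then 63 septin tags, and the summed share would be 0.200% ± 0.0686. Of the Sept5 and Gp1bb transcript ends, only those of Sept5-201 and Sept5-202 lay close to the site. It also lies inside the exon of Gp1bb-201, but upstream of the Gp1bb 3′UTR, and in no exon of Gp1bb-202. A further annotated gene, Gm49601, spans it too. Tags from an unannotated end of Gp1bb-201, Gm49601 or Sept5-205 at this place could not be told apart by position alone. Elsewhere in the text septin totals do not include the tags of this site. Another site within the span of Sept7, named Glb1l2, was on the opposite strand with 2 tags in replicate 1 and was not counted.

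**Figure D3:**
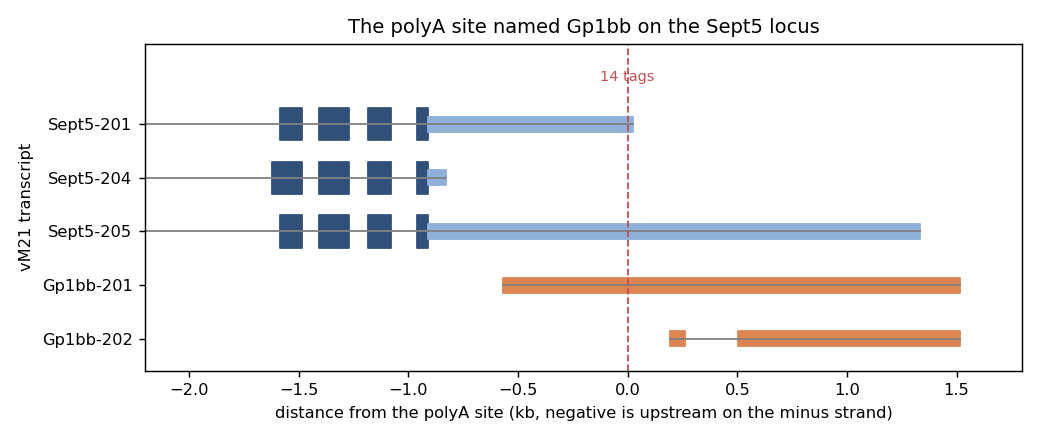
Transcripts of Sept5 (blue, coding parts tall and dark, 3′UTRs low and light) and of Gp1bb (orange, exons) against distance in kb from the polyA site named Gp1bb, drawn 5′ to 3′, with lines for introns. The site, with 14 tags, stands 23 bases before the end of Sept5-201 and 1515 bases before that of Gp1bb-201.

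In order of mean share the septins ran Sept7, Sept8, Sept3, Sept9, Sept6, Sept11, Sept4, Sept2 and Sept10, from 0.0794% to 0.00156% of library tags. Every pair of neighbours in this order overlapped between its lowest and highest libraries. For Sept7 against Sept8 the overlap came from replicate 1: the lowest Sept7 share, 0.0250%, was below the highest Sept8 share, 0.0328% in replicate 4, while in each of the 4 libraries Sept7 had more tags than Sept8.

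Septin sites recurred between libraries as follows. Of the 12 sites, 6 had tags in more than 1 library (50%), against 34.2% of all sites, and 1 (Sept7) had tags in all 4, against 4.9%. Of the 9 septins, 6 had tags in more than 1 library, against 47.4% of all names, and 2 (Sept7 and Sept8) in all 4, against 7.76%. The 6 recurring sites, of Sept7, Sept8 (the middle one), Sept3, Sept9, Sept11 and Sept6 (the downstream one), held 43 of the 49 tags (87.8%), against 77.8% of tags over all sites. The other 6 sites rested on 1 tag each, as did 57.2% of all sites. If a site had to have at least 2 tags in more than 1 library, 2 were left, those of Sept7 and Sept3.

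The septin sites were nearly all at mRNA 3′ ends, with 11 of 12 in annotated 3′UTRs, against 76.5% of all sites. A transcript end lay within 100 bases of 11 sites, and 10 of these 11 were 11 to 31 bases upstream of it, while the downstream Sept8 site was 9 bases past it. Over all 11 the median was 17 bases upstream. Over the 5248 sites of the table with such an end, 95.4% were upstream of it, and the median over all of them was 21 bases upstream (quartiles 16 and 25). The listed position is thus typically some bases before the cleavage site that the annotation gives, and this bears on where the polyA signal appears.

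AATAAA or ATTAAA stood on the gene's strand within 50 bases of 10 of the 12 septin sites (83.3%, 95% Wilson interval 55.2% to 95.3%), against 78.1% of all sites. In the 30 bases around the position, AATAAA was found at 8 septin sites (57.7% of all sites) and ATTAAA at the other 2 (15.1% of all sites). At 4 septin sites, those of Sept7, both of Sept6 and the downstream one of Sept8, a hexamer began at -2, overlapping the listed position, which was also the most frequent start over all sites with 866 occurrences. A search of the 50 upstream bases alone gave 3 of 12 septin sites (25%), against 27.7% of all sites. Of the 7 sites lost by it, 3 (Sept7 and both Sept6 sites) had a hexamer that overlaps the listed position, and 4 (Sept2, Sept4, Sept9 and the upstream Sept8 site) had hexamers that began downstream of it. Of the 6 sites with tags in more than 1 library 4 had AATAAA or ATTAAA, the others being Sept3, with ACTAAA (1.45% of all sites), and Sept11, with TTTAAA (9.46% of all sites). TTTAAA stood in the 30 bases of 3 of the 12 septin sites, also at Sept2 and the upstream Sept6 site, which have AATAAA or ATTAAA. These matches are letters in a window, and no use of them was measured.

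**Figure D4:**
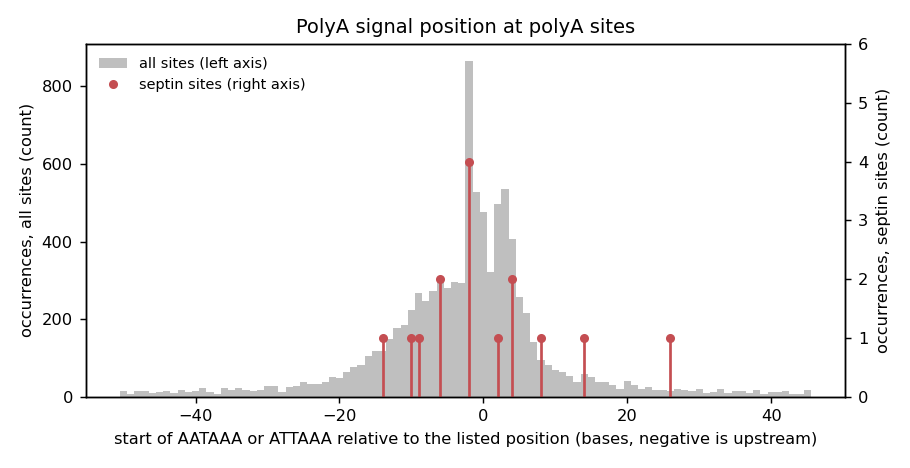
Start of every AATAAA or ATTAAA within 50 bases of the listed position, in bases, for all sites (grey bars, left axis, count) and for the septin sites (red, right axis, count). Both have their highest count at -2, with 4 septin occurrences there.

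Among genes of the filaments that septins lie along, the tubulins (10 names, 12 sites, 60 tags) had 0.0937%, 0.182%, 0.303% and 0.246% of the tags of replicates 1 to 4, a mean of 0.206% ± 0.0897 (SD, n = 4). The actins, with 55 of their 56 tags at Actb, had 0.0375%, 0.0757%, 0.387% and 0.361%, a mean of 0.215% ± 0.184. The ranges of both overlapped that of the septins, and in all of these sets replicate 1 was the lowest library. Among names with at least 20 tags, the ones whose spread over the libraries was most like that of the summed septins were Ndufa4, of the respiratory chain, the growth cone protein gene Basp1 and the membrane glycoprotein gene Gpm6a, at total variation distances of 0.0436, 0.0501 and 0.0504 (0 is the same spread), against a median of 0.357 over 210 names and 4 libraries.

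**Figure D5:**
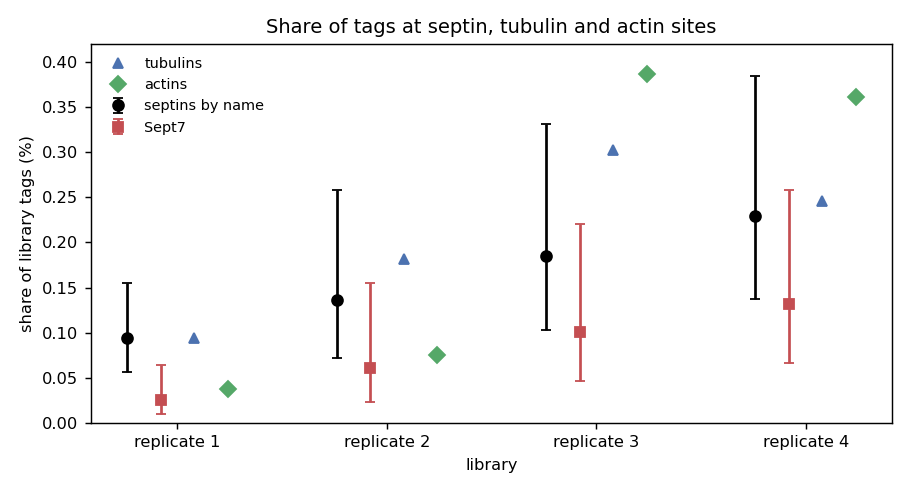
Share of library tags (%) at septin sites by name (black) and at Sept7 (red), with 95% Wilson intervals, beside tubulin (blue) and actin (green) sites, in the 4 libraries. The septins stood at 0.0937% in replicate 1 and 0.230% in replicate 4 with overlapping intervals, and Sept7 stood at 0.0250% in replicate 1 and 0.131% in replicate 4, with intervals that reach up to 0.0642% and down to 0.0665%.

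Of 20 genes for proteins that bind, regulate or transport septins, 11 had tags (164 tags, 0.481% ± 0.0765 of the libraries, SD, n = 4), 8 of the 20 in more than 1 library and 2 in all 4, beside the 47.4% and 7.76% of all names with tags, which leave out genes with none. The list shares Slc1a3, an astrocyte transporter gene with 3, 1, 2 and 0 tags, with the astrocyte markers. Dlg4, which encodes the postsynaptic scaffold PSD-95, held most, with 45, 26, 11 and 17 tags (0.285% ± 0.0853). Map4, a microtubule-binding protein gene, had 6, 2, 2 and 3 tags, so that Dlg4 and Map4 were the pair found in every library. The kinase gene Rock2 had 5, 0, 1 and 7 tags, and Stx1a, which encodes the syntaxin bound by Sept5, had 3, 0, 5 and 5. Taok2, whose kinase phosphorylates Sept7 in dendritic spines, had 2 and 7 tags in replicates 1 and 2 and none in the others. Cdc42, the GTPase that acts on septins through the Cdc42ep (Borg) proteins, had 4, 0, 2 and 0 tags, and none of Cdc42ep1 to Cdc42ep5, the filament organiser Anln or the non-muscle myosin gene Myh10 had a site by name. Dlg4 was the only partner with enough tags for the test of even shares.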

How the data were processed

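The authors deposited 1 table of raw tag counts per polyA site and replicate for the neuropil libraries. Per the labels' processing notes, cutadapt, Novoalign and the mm10 genome were used, and the study's methods name the CTK package for clustering tags into sites. Judging by its name, the table counts neuropil tags only at sites called in Camk2a-expressing cells. The handling of duplicate and multiply mapped tags is not given in the sources used here. Sites were taken by September dates in the gene name column, 1 site with no gene name was left out of counts by name, and positions were compared with GENCODE vM21 (GRCm38). The septins named are all of those found, and the genes named as alike are the 3 with the smallest distance. The members and gene lists, and the hexamers other than AATAAA and ATTAAA, were chosen with earlier results of these data known.

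Tags were divided by the library total. Names with at least 20 tags were tested for even shares between the 4 libraries by an exact multinomial test, and site usage by Fisher's exact test for names with at least 2 sites in more than 1 library and at least 10 tags at them, with Benjamini-Hochberg adjustment over all names at a threshold of 0.05. Both tests were tried on simulated tags drawn independently of each other, as the tests assume. That simulation does not cover spread between pools beyond counting error. The p-values of both tests take tags as independent molecules and so rest on counting error between these pools. Alternatives were leaving out each replicate, other totals (edgeR 4.0.16 TMM), other minimums, recurring sites and assignment by position. Python 3.11.15, scipy 1.17.1, pysam 0.24.0 and R 4.3.3 were used.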

Additional observations from a re-analysis of the deposited data

Results flagged for a closer look

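The total of replicate 1, 16017 tags against 5947 to 6609 in the other libraries, stood apart: its gap to the nearest library was 0.934 of the whole range, above the 95% limit of Dixon's test. Of 10 values looked at in this way 1 passed, where chance gives 0.5. The site named Gp1bb inside the 3′UTR of Sept5, with 14 tags and at least 1 in each library, was outside the septins chosen by name.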

How the results depend on the processing

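Of 26 alternative values of the main results, 20 were counted as kept. The count is lenient where the SD is wide. It includes the downstream share of Sept6 and Sept8 tags (62.5% ± 47.9), which fell to 50% without replicate 1 or without replicate 4. The summed septin share was 0.138% to 0.184% without 1 replicate each and 0.154% with TMM-scaled totals, and the number of septin sites in more than 1 library was 5 to 6 without 1 replicate. Asking for at least 2 tags in more than 1 library left 2 sites. The number of septins whose share differed between libraries, 1 (Sept7), became 0 when the site with the most tags was left out of the totals, 0 with a minimum of 10 tags, and, in alternatives chosen after seeing the data, 0 with that minimum without replicate 1 or without replicate 4, but 1 without replicate 2 or without replicate 3. Searching the upstream bases alone, the share of septin sites with a polyA signal was 25%, since 3 sites have a hexamer that overlaps the position and 4 have hexamers that begin downstream of it. The downstream share of Sept6 and Sept8 tags was 50% to 83.3% without 1 replicate and rested on 5 tags. The 48 alternative values of the 6 septins in more than 1 library moved by less than the SD between replicates. For the values without 1 replicate this was fixed in advance. Leaving out 1 of 4 libraries cannot move a mean over libraries by as much as the SD. The Sept6 share went from 0.0125% to 0.00547% without replicate 3. No paired analysis was possible because all 4 libraries belong to 1 group. Depth limits every septin: Sept7 had fewer than 20 tags without any 1 of the libraries, the others had 1 to 7 tags, and 3 of the 9 rested on a single tag.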
